A study of Mus musculus with 18 samples.

Results

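Neurexins and neuroligins are the best known pair of adhesion proteins that join a presynaptic nerve terminal to the neuron it contacts. The genes described are Nrxn2, Nrxn3, Nlgn1, Nlgn2 and Nlgn3, chosen by name and matched by their Ensembl identifiers, 5 of the 39017 gene identifiers counted in the study. They hold 137 of the 355320 exon bins that were also counted, an exon bin being a stretch of exon numbered within its gene. The libraries were made from RNA bound to tagged ribosomes of mouse entorhinal cortex layer II neurons, a method called translating ribosome affinity purification (TRAP). For silencing, a Ptbp1 shRNA vector was injected into 4 mice and a scrambled shRNA vector into 5. For overexpression, a Ptbp1 vector was injected into 5 mice and a control vector into 4, and all 4 kinds of vector also carried mCherry. Each library came from 1 mouse with its 2 entorhinal cortices pooled, and the authors had left out 1 Ptbp1 shRNA mouse and 1 control mouse in which mCherry reads were lacking. The tissue label reads hippocampus, whereas the title and design name the entorhinal cortex. The labels give no strain or age, and neither the transgene that tags the ribosomes nor its promoter.

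Neurexins sit in the presynaptic membrane, and each neurexin gene yields a long alpha form and a shorter beta form from a promoter inside the gene. Their extracellular part is altered by small exons that can be included or skipped at numbered splice sites, and splice site 4 is known to change which partners a neurexin binds. Neuroligins are postsynaptic ligands of neurexins with their own small alternative segments, at sites A and B. Nlgn1 is known mainly from excitatory synapses, Nlgn2 from inhibitory synapses, and Nlgn3 from both. Ptbp1 encodes an RNA-binding protein that binds pyrimidine-rich stretches of RNA and represses many neuronal exons in cells other than neurons. In neurons its paralog Ptbp2 largely takes its place.

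The alternative segments are shown first because the exon results below turn on them. They were read from GENCODE release M21 transcripts, build mm10, and are written 5′ to 3′ on the strand of the gene. Printed here are the 27-base segment of the alpha-only part of Nrxn2 (chr19:6488784-6488810, + strand) and site B of Nlgn1 (chr3:25439865-25439891, − strand), each of which had at least 1 measure without overlap between the groups of an experiment. Site A of Nlgn2 (chr11:69830563-69830613, − strand) is shown with them as the alternative segment examined in that gene. Here the segment is in capitals and the 18 mRNA bases on either side are in lower case.
Nrxn2 27-base segment: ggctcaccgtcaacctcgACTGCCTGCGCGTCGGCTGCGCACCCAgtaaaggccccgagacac
Nlgn1 site B: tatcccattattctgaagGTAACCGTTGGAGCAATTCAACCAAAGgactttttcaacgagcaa
Nlgn2 site A: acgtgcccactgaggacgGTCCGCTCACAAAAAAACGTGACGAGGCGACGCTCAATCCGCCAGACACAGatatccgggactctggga

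Equivalent exons of 2 neuroligins were compared base by base, without gaps, and capitals mark the bases that the pair shares. The site A exon of Nlgn1 (chr3:25920178-25920237, − strand) and the second site A exon of Nlgn3 (chrX:101307075-101307134, + strand) are both 60 bases long. They share 43 bases (71.7%), and 22 of their last 24.
Nlgn1 site A: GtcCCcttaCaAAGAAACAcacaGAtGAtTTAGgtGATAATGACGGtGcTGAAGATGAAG
Nlgn3 site A, second exon: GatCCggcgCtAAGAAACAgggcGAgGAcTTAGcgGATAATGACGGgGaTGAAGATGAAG
Of these segments, each has a length that is a multiple of 3, so that its inclusion keeps the reading frame.

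Total gene counts ran between 34339355 and 46544178 per silencing library, and between 18288627 and 39056655 per library of the overexpression experiment. Coverage of transcripts was less even in the silencing libraries. Of the 56285 exon bins averaging at least 50 counts over the 18 libraries, 1.24% to 8.30% had no read in a Ptbp1 shRNA library and 1.54% to 7.61% in a scrambled shRNA library. In the overexpression libraries this share was 0.0213% to 0.0551%, and with the control vector 0.0409% to 0.0515%. The common biological coefficient of variation of edgeR, the typical spread of a gene between mice of a group, was 90.1% in silencing and 22.3% in overexpression. Levels are given as CPM, gene counts scaled to a common library size after TMM adjustment. The 5 excitatory neuron markers summed to 1315 to 2558 CPM in Ptbp1 shRNA libraries and 2573 to 4379 CPM in scrambled shRNA libraries, against 1862 to 2672 CPM with Ptbp1 overexpression and 2298 to 2835 CPM with the control vector. The 7 astrocyte markers were also present, at 323 to 810.3 CPM, 631 to 1037 CPM, 335 to 688 CPM and 482 to 738 CPM in the same order of groups, whereas the 7 hippocampal markers summed to at most 38.6 CPM in any library and 6 microglial markers to at most 19.0 CPM. Single markers, namely C1qa of microglia, Mag of oligodendrocytes, Iyd of the hippocampus, and Cldn5 and Kdr of vessels, were at 0 in all silencing libraries. Their whole sets were not at 0 there. Microglial markers summed to as much as 19.0 CPM, vessel markers to 6.72 CPM and oligodendrocyte markers to 133 CPM. A single marker at 0 thus does not show that its cell type was absent.

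Ptbp1 itself was read in every library as a check of the labels. It stood at 6.57, 0.101, 0.588 and 13.1 CPM in the Ptbp1 shRNA libraries, against 3.38, 0.930, 6.72, 0.349 and 9.11 CPM in the scrambled shRNA libraries. The ranges overlap in full, and the difference of means on the log2(CPM + 0.5) scale was -0.18 (exact two-sided permutation p = 0.921). The fold change fitted by edgeR had the other sign, 0.31 on the log2 scale with a standard error of 1.27 (edgeR adjusted p = 0.961). A lower Ptbp1 level in the libraries labelled Ptbp1 shRNA was thus not detectable. With Ptbp1 overexpression the levels were 136, 143, 158, 129 and 118 CPM, against 17.2, 13.5, 9.96 and 12.3 CPM with the control vector. That is a difference of 3.34 on the same scale (exact two-sided permutation p = 0.0159, the smallest p that this design can give).

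In the silencing experiment Nrxn3 was the member that differed most. It had 133, 129.5, 146 and 136 CPM in the Ptbp1 shRNA libraries, against 186, 366, 332, 264 and 583 CPM in the scrambled shRNA libraries. All 4 Ptbp1 shRNA libraries lay below all 5 scrambled shRNA libraries, and they were close to each other while the scrambled ones spread over a wide range. The means were 136 ± 6.83 CPM (SD, n = 4) and 346 ± 149 CPM (SD, n = 5), a log2 fold change of -1.35 with a standard error of 0.29. The unadjusted p was 0.000527 and the adjusted p 0.118 by edgeR's quasi-likelihood test with Benjamini-Hochberg adjustment, so Nrxn3 did not pass 0.05. DESeq2 gave the same size, -1.34, and an adjusted p of 0.00284, so the call differs between the tools. Of the 14656 genes tested, 2.45% likewise had all Ptbp1 shRNA libraries below all scrambled shRNA libraries.

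Nrxn2, the other neurexin, had 17.5, 27.2, 33.2 and 24.8 CPM in the Ptbp1 shRNA libraries, against 13.7, 15.2, 40.5, 21.4 and 103 CPM in the scrambled shRNA libraries. The groups overlap, and a single scrambled shRNA library, replicate 5, lies far above the other 8 libraries. The log2 fold change was -0.60 with a standard error of 0.59 (edgeR adjusted p = 0.786), and without that library it was 0.18. Replicate 5 of the scrambled shRNA group also had 7.61% of well-covered bins at 0, the second highest share, and its Nrxn3 level was the highest as well. Without it and Ptbp1 shRNA replicate 2, which had 8.30% at 0, the Nrxn3 fold change was -1.05 on the log2 scale (edgeR adjusted p = 0.231). These 2 libraries were set aside only after the data had been seen.

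None of the neuroligins passed the test in silencing either. Nlgn2, the neuroligin of inhibitory synapses, had 23.4, 16.6, 14.2 and 19.4 CPM in the Ptbp1 shRNA libraries, against 38.5, 46.7, 28.3, 49.96 and 16.4 CPM in the scrambled shRNA libraries. The scrambled shRNA library that was highest for both neurexins was the lowest of its group for Nlgn2, and the other 4 lay above every Ptbp1 shRNA library. The log2 fold change was -0.97 with a standard error of 0.43, with an unadjusted p of 0.0423 and an adjusted p of 0.428 by edgeR. Nlgn1, the neuroligin of excitatory synapses, had 124, 249, 211 and 201 CPM in the Ptbp1 shRNA libraries, against 142, 305, 216, 271 and 283 CPM in the scrambled shRNA libraries. These groups overlap over most of their range, with a log2 fold change of -0.31 and a standard error of 0.27 (edgeR adjusted p = 0.739).

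Nlgn3 had 78.5, 75.1, 68.7 and 144 CPM in the Ptbp1 shRNA libraries, against 94.99, 99.7, 107, 132 and 90.1 CPM in the scrambled shRNA libraries. Of the Ptbp1 shRNA libraries 3 were lower than all scrambled ones and the fourth, replicate 4, was higher than all of them. The log2 fold change was -0.19 with a standard error of 0.28 (edgeR adjusted p = 0.866). By this test 0 of the 5 members were called in silencing, where 0.0% of all 14656 genes passed, 11.2% had an unadjusted p under 0.05 and 48.8% a log2 fold change below 0. At that unadjusted level 2 members, Nrxn3 and Nlgn2, stood out. DESeq2 called 434 genes and, of the members, Nrxn3 alone. A lower level of a transcript in such bulk RNA cannot be told apart from a smaller number of cells that carry it. The excitatory markers were lower in the same direction as Nrxn3, with 4 of 4 Ptbp1 shRNA libraries at 1315 to 2558 CPM, under the lowest scrambled shRNA library at 2573 CPM. The markers of superficial and layer II neurons overlapped between the groups, at 284 to 583 CPM with Ptbp1 shRNA and 317 to 563 CPM with scrambled shRNA. Interneuron markers overlapped too, at 184 to 365 CPM and 292 to 368 CPM, as did astrocyte markers, at 323 to 810.3 CPM and 631 to 1037 CPM. The part of cell composition in the Nrxn3 result was not tested.

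**Figure D1:**
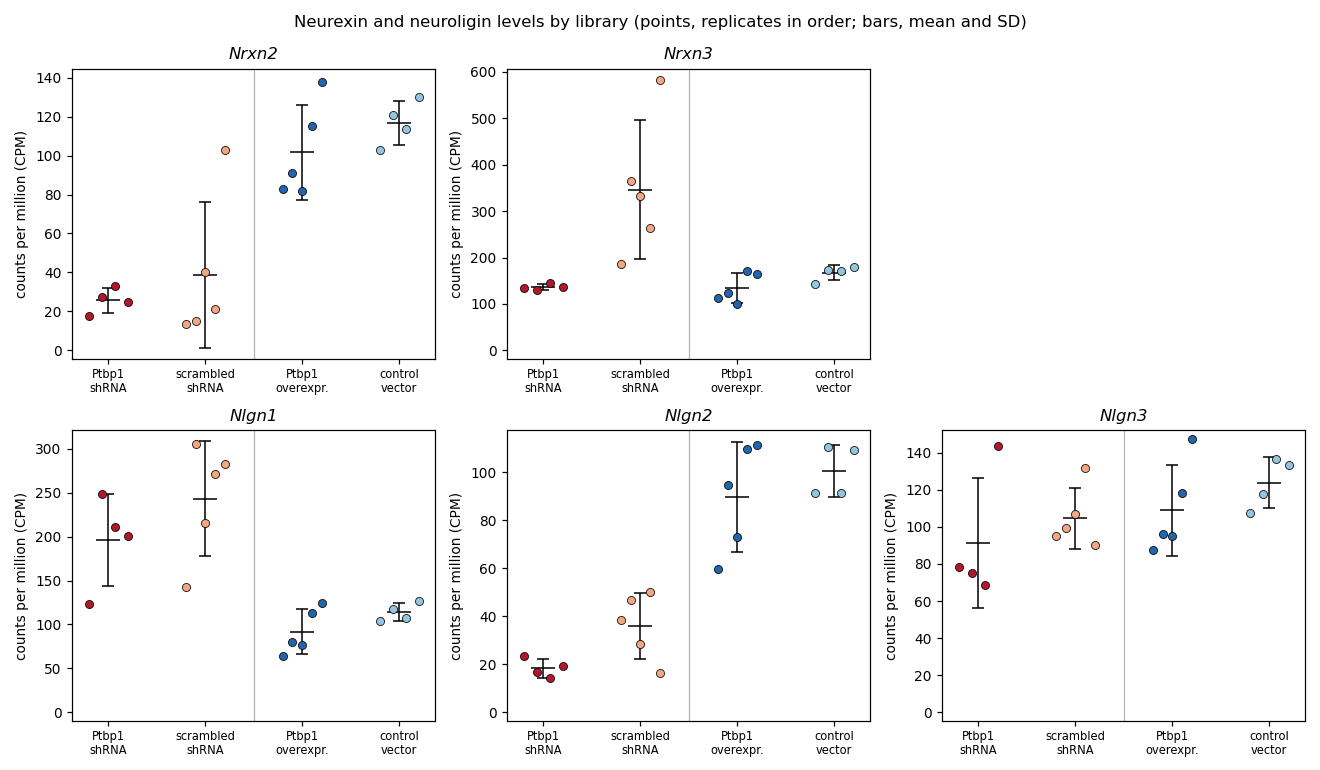
Levels of the 5 members in CPM (linear y axis) in each library (points, replicates in order from left to right) with the mean and SD of each group (bars), the 2 experiments being split by a grey line. Nrxn3 lies between 129.5 and 146 CPM in the 4 Ptbp1 shRNA libraries, under all scrambled shRNA libraries, and Ptbp1 overexpression replicates 4 and 5 are the highest of their group in all 5 panels.

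The overexpression libraries gave narrower values, and no member was called there either. Nrxn3 had 113, 123, 100.4, 169.9 and 165 CPM with Ptbp1 overexpression, against 143, 173, 171 and 179.9 CPM with the control vector. Replicates 1, 2 and 3 lay below all controls, and replicates 4 and 5 within the range of the controls. The means were 134 ± 31.4 CPM (SD, n = 5) and 167 ± 16.2 CPM (SD, n = 4), a log2 fold change of -0.31 with a standard error of 0.15, an unadjusted p of 0.0504 and an adjusted p of 0.974 by edgeR. Nrxn2 had 82.7, 90.9, 81.8, 115 and 138 CPM with Ptbp1 overexpression, against 103, 121, 113 and 129.9 CPM with the control vector. The same 3 libraries lay below all controls and replicate 5 above all of them, with a log2 fold change of -0.20 and a standard error of 0.15.

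In each of the 3 neuroligins Ptbp1 overexpression replicate 1 was the lowest of its group and replicate 5 the highest. Nlgn1 had 64.2, 80.2, 77.2, 112.5 and 124.5 CPM with Ptbp1 overexpression, against 104, 117.5, 107 and 127 CPM with the control vector, a log2 fold change of -0.31 with a standard error of 0.17. Nlgn2 had 59.6, 94.7, 73.1, 109.9 and 111 CPM with Ptbp1 overexpression, against 91.4, 111, 91.3 and 109 CPM with the control vector. Here only replicates 1 and 3 lay below all controls, and the log2 fold change was -0.17 with a standard error of 0.16. Nlgn3 had 87.3, 96.1, 94.8, 118.5 and 147.5 CPM with Ptbp1 overexpression, against 107, 118, 137 and 133 CPM with the control vector. Its log2 fold change was -0.19 with a standard error of 0.14. Each of these 4 members had an edgeR adjusted p of 0.974, and 0 of the 5 members were called where 0.0425% of 16480 genes were. An unadjusted p under 0.05 was found for 4.78% of those genes and for 0 members.

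In overexpression the fold changes of the 5 members were all below 0, as were those of 50% of all genes tested. The median over all genes was -8.0e-05. The 95% interval reached down to -0.67 for Nlgn1, -0.63 for Nrxn3, -0.52 for Nlgn2, -0.51 for Nrxn2 and -0.49 for Nlgn3, so that falls of up to that size lie within the intervals. Replicates 4 and 5 of the Ptbp1 overexpression group had the highest level of every member, at 95.7% to 119% of the control mean, and replicates 1 to 3 were at 56.4% to 94.0%. The summed markers of superficial and layer II neurons had the same highest libraries, at 676 and 695 CPM in replicates 4 and 5 and 496, 587 and 582.1 CPM in replicates 1 to 3, against 542 to 666 CPM with the control vector. The astrocyte markers were also highest in replicates 4 and 5, at 638 and 688 CPM, with 335, 564 and 512 CPM in replicates 1 to 3, against 482 to 738 CPM with the control vector. The excitatory markers did not have this order, since replicate 2, at 2545 CPM, was above replicate 5, at 2515 CPM. The gene counts of replicates 1 to 5 were 39056655, 32955323, 21454440, 24087297 and 22680928. In the numbering of the library titles, the control libraries stand between replicates 1 to 3 and replicates 4 and 5. The part of cell composition, depth or this order in the members' levels was not tested. Across the 9 libraries of the overexpression experiment, the log2 levels of every pair of members correlated with Pearson's r of 0.77 (Nlgn2 with Nlgn3) to 0.96 (Nrxn2 with Nlgn1), whereas in the 9 silencing libraries r ranged from -0.59 (Nrxn2 with Nlgn2) to 0.60 (Nrxn3 with Nlgn1). These are descriptions over libraries that share their scaling.

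**Figure D2:**
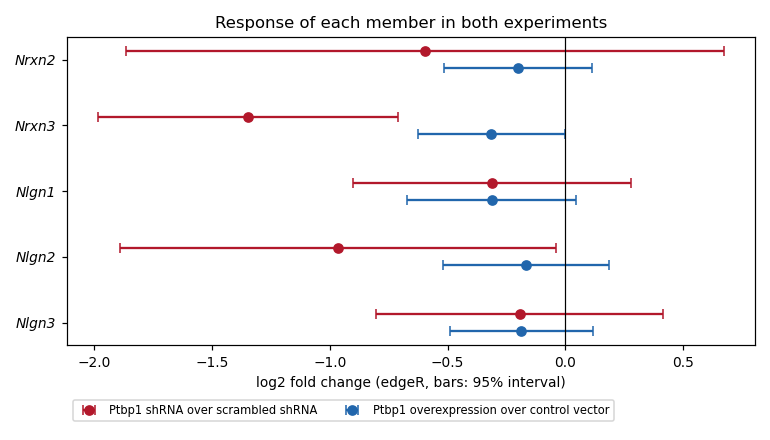
Log2 fold change of each member (x axis) with its 95% interval (bars) for Ptbp1 shRNA over scrambled shRNA and for Ptbp1 overexpression over control vector. The 5 overexpression values lie between -0.31 and -0.17 with short bars, and in silencing Nrxn3, at -1.35, is the farthest from 0.

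Whether the members responded differently in the 2 experiments was tested over all 18 libraries. This fit used 1 spread per gene for both experiments, whose common biological coefficients of variation were 90.1% in silencing and 22.3% in overexpression. Its standard errors and p-values may therefore understate the spread of the silencing libraries. For Nrxn3 the response to overexpression exceeded the response to silencing by 1.04 on the log2 scale, with a standard error of 0.34 and an unadjusted p of 0.00609. The adjusted p was 0.156 by edgeR, so the difference did not pass. For Nlgn2 it was 0.81 with a standard error of 0.40 (edgeR adjusted p = 0.367). For Nrxn2 it was 0.40 with a standard error of 0.61, and it was 0.00 for Nlgn1 and 0.01 for Nlgn3. Over all genes 0.225% of 17779 passed this test. In both experiments the fold changes of all 5 members were below 0.

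Levels of different members can be compared only per length, as CPM per kilobase of annotated exon. The lengths take in all GENCODE M21 transcripts of a gene. For Nlgn1 they gave 13.4 kb, whereas its 7 exon bins, built from fewer transcripts, cover far less. A shorter length would raise Nlgn1 per kb in every group, so its place in the order below depends on the annotation. The neurexin lengths also take in stretches with almost no reads. Examples are Nrxn3 bin 022, of 1050 bases with a mean count of 0, and Nrxn2 bin 053, of 1829 bases with a mean of 0.611. The places of the neurexins thus depend on the annotation as well. With the control vector Nlgn2 was highest at 17.4 ± 1.87 CPM per kb, followed by Nlgn3 at 13.4 ± 1.47, Nrxn3 at 13.2 ± 1.29, Nlgn1 at 8.48 ± 0.772 and Nrxn2 at 8.45 ± 0.826 (SD, n = 4 each). The ranges of Nlgn3 and Nrxn3 overlapped, as did those of Nlgn1 and Nrxn2, while the other neighbours in this order did not overlap. With Ptbp1 overexpression Nlgn2, Nlgn3 and Nrxn3 kept the first 3 places, at 15.5 ± 3.95, 11.7 ± 2.65 and 10.7 ± 2.49 CPM per kb (SD, n = 5 each), and every neighbour overlapped the next. The silencing libraries had another order. In the Ptbp1 shRNA libraries Nlgn1 was highest at 14.6 ± 3.92 CPM per kb, then Nrxn3 at 10.8 ± 0.542, Nlgn3 at 9.86 ± 3.77, Nlgn2 at 3.18 ± 0.681 and Nrxn2 at 1.86 ± 0.471 (SD, n = 4 each). The first 3 of these overlapped from neighbour to neighbour, and the other steps did not overlap. In the scrambled shRNA libraries Nrxn3 was highest at 27.5 ± 11.8 CPM per kb, then Nlgn1 at 18.1 ± 4.87, Nlgn3 at 11.3 ± 1.76, Nlgn2 at 6.21 ± 2.38 and Nrxn2 at 2.81 ± 2.71 (SD, n = 5 each). Here all neighbours overlapped except Nlgn3 and Nlgn2. By the lengths used, Nlgn2 and Nrxn2 were thus the lowest members in both silencing groups. Nlgn2 was the highest in both groups of the overexpression experiment. Both statements depend on the lengths taken for Nlgn1 and the neurexins. The experiments were separate and no library links them, so this change of order cannot be assigned to the vectors.

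Before exon use is compared, it has to be known whether constant exons were seen. Among the placed bins of Nrxn2, 16 are coding bins that every annotated coding transcript spanning them holds, and bins that could not be placed were not counted. The Ptbp1 shRNA libraries had 5 to 7 of them at 0 and the scrambled shRNA libraries 4 to 11, against 0 in all 9 libraries of the overexpression experiment. For Nrxn3, 0 to 7 of 17 such bins were at 0 in the Ptbp1 shRNA libraries and 0 to 3 in the scrambled shRNA libraries. Nlgn2 had 0 to 4 of 7 at 0 in Ptbp1 shRNA libraries and 0 to 6 in scrambled shRNA libraries, and Nlgn3 0 to 4 of 6 in both groups. Nlgn1, with 4 such bins, had all of them covered in every library. A missing alternative exon in a silencing library therefore looks no different from a missing constant exon, and exon use in that experiment can be read for few segments.

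**Figure D3:**
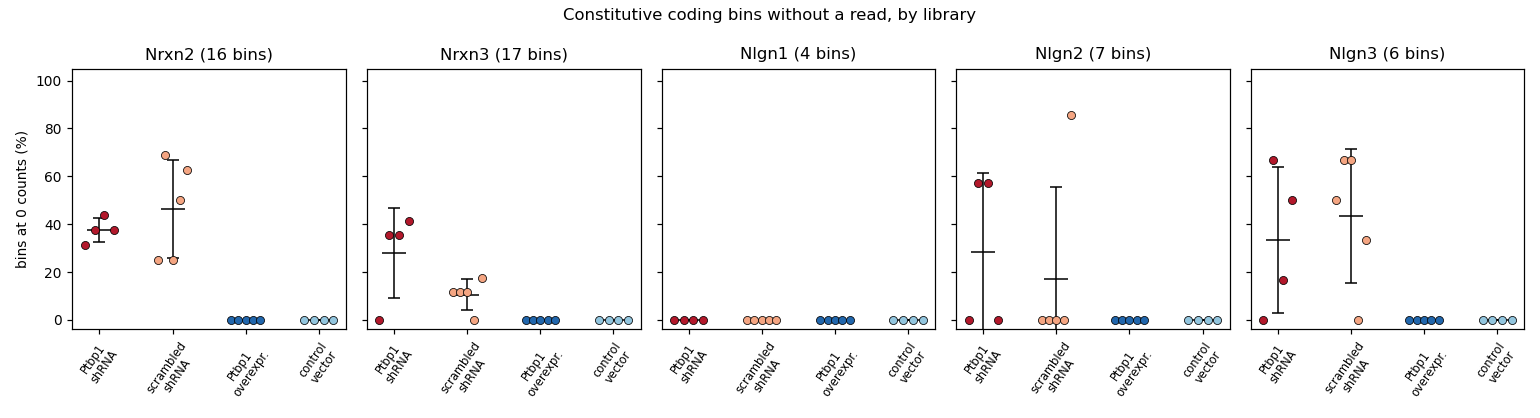
Percent of each member's constant coding bins that held no read (y axis) in each library (points) with the mean and SD of each group (bars). All 9 libraries of the overexpression experiment are at 0 for all members, and silencing libraries reach 11 of 16 bins for Nrxn2 and 6 of 7 for Nlgn2.

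Use of single bins was tested against the other bins of the same gene identifier. That of Nlgn3 joins 3 genes, and only 18 of its 85 bins are of Nlgn3. Its bins were thus tested mostly against bins of other genes. In the overexpression experiment 82 member bins were tested and 0 were called, where 0.034% of 117580 bins were. At an unadjusted p under 0.05 there were 2 of 82, against 1.38% of all bins. In silencing 53 member bins were tested and 0 were called, where 0.0012% of 83164 bins, a single bin, was. At the unadjusted level 1 of 53 passed, against 1.98% of all bins. It was an 18-base 3′ bin of Nrxn2, bin 050, with a log2 relative use of -2.06, a standard error of 0.83, an unadjusted p of 0.015 and an adjusted p of 1 by edgeR. The median standard error of the members' bins was 0.18 on the log2 scale in overexpression and 0.67 in silencing.

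The bin with the smallest p was a UTR bin of Nrxn3, bin 046, 1492 bases long and the last of the gene. It held 3.04% to 4.50% of the bin reads of Nrxn3 with Ptbp1 overexpression, against 5.04% to 6.14% with the control vector, so that the groups did not overlap. Its log2 relative use was -0.46 with a standard error of 0.15, an unadjusted p of 0.00219 and an adjusted p of 1 by edgeR. The second was the 27-base segment of Nrxn2 printed above, bin 030. It held 0.439% to 0.691% of the bin reads of Nrxn2 with Ptbp1 overexpression, against 0.902% to 1.28% with the control vector, again without overlap. Its log2 relative use was -0.53 with a standard error of 0.27, an unadjusted p of 0.0483 and an adjusted p of 1 by edgeR. Of all bins tested in that experiment 0.832% were lower in this way, with no overlap between the groups. For the other members the smallest p in overexpression was 0.351 (Nlgn1 bin 003, site B), 0.588 (Nlgn2 bin 010) and 0.258 (Nlgn3 bin 082).

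To describe the segments themselves, reads in a segment were set against 100 reads in the nearest constant bins on either side. Where only 1 side had a constant bin, that bin alone was used. This is not a percentage of transcripts, since a bin's reads also grow with its length and a short bin collects reads that run into its neighbours. The 27-base segment of Nrxn2 had 19.8, 23, 21.4, 25.3 and 25 reads per 100 flanking reads with Ptbp1 overexpression, against 34.2, 36.7, 28.9 and 25.9 with the control vector. These rest on 87 segment reads in the 5 Ptbp1 overexpression libraries and 115 in the 4 control libraries, and the highest treated and lowest control library are close. It was the only one of the 13 segments whose overexpression libraries did not overlap with the controls. Without control replicate 1 or Ptbp1 overexpression replicate 5 there were 2 such segments. No share over all bins was computed for this measure, so these counts have no background to be read against.

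Splice site 4 was read well in the overexpression experiment. For Nrxn2 it had 22.1, 21.2, 16.5, 20.2 and 25.3 reads per 100 flanking reads with Ptbp1 overexpression, against 21, 16.9, 23 and 24.2 with the control vector, on 739 and 592 segment reads. The means, 21.1 ± 3.15 (SD, n = 5) and 21.3 ± 3.19 (SD, n = 4), differ by far less than their spread. For Nrxn3 it had 23.2, 23.4, 26.1, 20.4 and 24.8 with Ptbp1 overexpression, against 23.4, 27.3, 27.6 and 26.5 with the control vector, and the groups overlap. The tested relative use was -0.15 for Nrxn3 and -0.05 for Nrxn2 on the log2 scale, with standard errors of 0.15 each and an edgeR adjusted p of 1. In silencing the Nrxn2 exon had no read in 3 of 4 Ptbp1 shRNA libraries, with 106, 240 and 581 flanking reads beside it, and 190 reads on 408 flanking reads in replicate 3. The scrambled shRNA libraries ranged from 0 to 28.2 per 100. Such values from 0 to 46.6 within a group leave no reading of the group means. The Nrxn3 exon, with 93 to 844 reads in every silencing library, had 26.2, 21.9, 13.5 and 8.92 per 100 flanking reads in the Ptbp1 shRNA libraries, against 21.1, 18.6, 11.6, 18.7 and 12.6 in the scrambled shRNA libraries, with overlap.

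In the annotation used, site B of Nlgn1 directly adjoins bin 004, 1 of its flanking bins, as an extension of the same exon. Site B held reads in every silencing library. It had 7.59, 14.6, 11.1 and 9.76 reads per 100 flanking reads in the Ptbp1 shRNA libraries, against 7.06, 4.89, 4.18, 6.77 and 8.36 in the scrambled shRNA libraries. Of the Ptbp1 shRNA libraries 3 were higher than all scrambled ones. As a share of all bin reads of Nlgn1 the groups did not overlap, at 2.20% to 2.68% in the Ptbp1 shRNA libraries and 0.728% to 1.97% in the scrambled shRNA libraries, and 0.646% of all bins tested were higher in this way. Its tested relative use was 0.55 on the log2 scale with a standard error of 0.65 (edgeR adjusted p = 1). In overexpression it had 9.32, 9.9, 13.9, 13.6 and 14.4 with Ptbp1 overexpression, against 10.9, 10.7, 10.1 and 11.4 with the control vector, and the groups overlap. Site A of Nlgn1 held few reads in overexpression, at 1.10 to 4.41 per 100 flanking reads with Ptbp1 overexpression and 0.826 to 2.75 with the control vector. In silencing it held 1 read on 551 flanking reads in the Ptbp1 shRNA libraries and 99 on 1212 in the scrambled shRNA libraries, at 0 to 0.633 and 0 to 10.9 per 100, so that the groups overlap.

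The flanking bins of site A differ in length between the neuroligins, so these values do not rank its use across genes. For Nlgn2 site A had 28.1, 10.9, 35.2, 26.7 and 34.1 reads per 100 flanking reads with Ptbp1 overexpression, against 42.2, 23, 20.8 and 24.2 with the control vector. In silencing the same exon ranged from 0 to 51.9 in the Ptbp1 shRNA libraries, on 16 segment reads, and from 30 to 53.2 in the 4 scrambled shRNA libraries with flanking reads, on 75. For Nlgn3 the second exon of site A had 29.5, 40, 36, 33.3 and 25 with Ptbp1 overexpression, against 20.8, 25.9, 29.2 and 25 with the control vector, on only 45 and 28 reads. In 4 of 5 Ptbp1 overexpression libraries it was above all controls, but it held too few reads for the test of single bins. The first site A exon of Nlgn3 had 7 and 2 reads in all. In silencing these exons of Nlgn3 had 0 to 2 reads per library and cannot be compared.

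The remaining segments were those of Nrxn3 and the rest of Nrxn2. In Nrxn3 a 9-base segment, bin 037, had 3.70 to 13.9 reads per 100 flanking reads with Ptbp1 overexpression and 3.52 to 6.62 with the control vector. A 321-base segment, bin 040, had 33.6 to 47.1 with Ptbp1 overexpression and 29.0 to 42.3 with the control vector. A 27-base segment, bin 029, had 1.38 to 2.34 with Ptbp1 overexpression and 0.901 to 3.05 with the control vector. In Nrxn2 a 62-base segment, bin 040, had 20.2 to 27.8 with Ptbp1 overexpression and 18.8 to 26.1 with the control vector. It is counted among the 13 segments, but it is the coding part of the first exon of beta Nrxn2. It thus marks the start of the beta form and not a skipped exon, and its reads enter the beta measure below as well. A 576-base segment of Nrxn2, bin 048, had a constant bin only before it, the 79-base bin 047, so its values are on another scale. Against that bin alone it had 90.9 to 111 with Ptbp1 overexpression and 62.6 to 103 with the control vector. All of these overlapped between the groups. In silencing Nrxn3 bin 037 had 0.701 to 9.50 in the Ptbp1 shRNA libraries and 2.90 to 6.69 in the scrambled shRNA libraries, bin 040 had 11.7 to 16.5 and 6.04 to 24.3, and bin 029 had 0 to 4.83 and 0 to 7.69, in the same order of groups. Nrxn2 bin 040 had 4.35 to 53.1 in the Ptbp1 shRNA libraries, and 7.14 and 40.4 in the 2 scrambled shRNA libraries with flanking reads. Nrxn2 bin 048 stood on only 30 flanking reads in all Ptbp1 shRNA libraries and 205 in the scrambled shRNA libraries. These groups overlap as well.

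**Figure D4:**
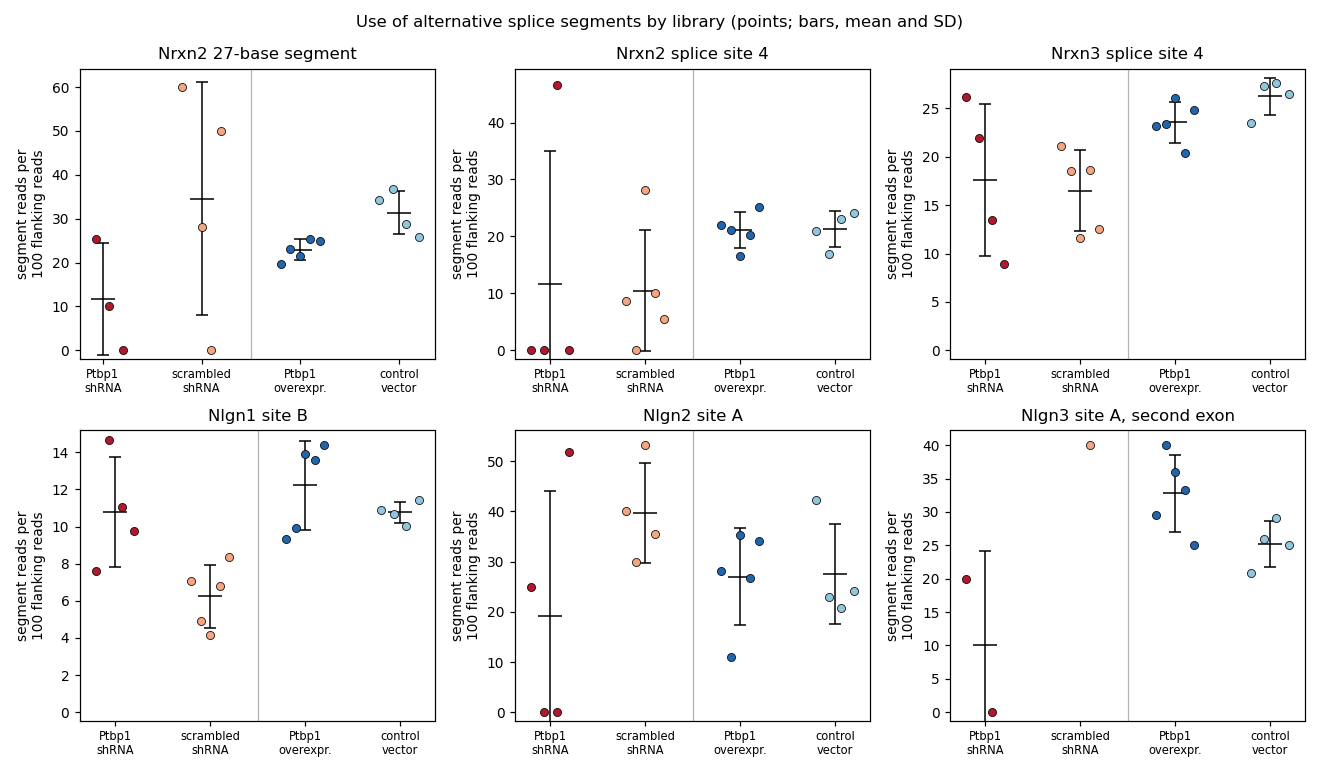
Reads of 6 alternative segments per 100 reads of their constant flanking bins (y axis) in each library with flanking reads (points), with the mean and SD of each group (bars). The 27-base segment of Nrxn2 lies at 19.8 to 25.3 with Ptbp1 overexpression and 25.9 to 36.7 with the control vector, and the silencing libraries range from 0 to 60.0 for that segment.

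The alpha and beta forms could be told apart by bins found in only one of them. For Nrxn2, the read density of 10 alpha-only coding bins was 9.41% to 13% of that of 6 bins shared by both forms with Ptbp1 overexpression, against 7.25% to 13.2% with the control vector. The density of the first exon of beta Nrxn2 was 7.63% to 11.9% of the shared density with Ptbp1 overexpression, against 6.61% to 9.0% with the control vector. For Nrxn3 the alpha-only density was 18.7% to 29.0% with Ptbp1 overexpression, against 13.8% to 22.9% with the control vector. Its beta first exon was at 16.9% to 26.0% with Ptbp1 overexpression, against 17.9% to 23.9% with the control vector. All 4 measures overlapped between the groups. The shared bins lie nearer the 3′ end, so these shares are not the proportions of the forms. In silencing the alpha-only density of Nrxn3 was 0.303% to 4.11% in the Ptbp1 shRNA libraries and 0.634% to 3.36% in the scrambled shRNA libraries, all below the lowest library of the overexpression experiment, at 13.8%. The shared bins of Nrxn3 held 2439 to 15120 reads per kb in the silencing libraries and 607 to 1745 in the overexpression experiment. For Nrxn2 the alpha-only density in silencing spread widely, at 0.888% to 28.2% in the Ptbp1 shRNA libraries and 0% to 28.3% in the scrambled shRNA libraries, on either side of the overexpression values.

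Neurexins and neuroligins work with many other proteins, and 84 partner genes were followed by role. In overexpression 83 of them were tested, and 1 rose and 1 fell, both among the 14 splicing regulators, where 0.0425% of all genes were called. Ptbp1 rose, and Ptbp2, its neuronal paralog, fell to 47.5 ± 6.51 CPM with Ptbp1 overexpression (SD, n = 5), against 109 ± 2.54 CPM with the control vector (SD, n = 4). Its log2 fold change was -1.20 with a standard error of 0.10 (edgeR adjusted p = 7.81e-05). Leaving out 1 library gave an edgeR adjusted p of 9.69e-05 to 0.00106 for Ptbp2, but with all 18 libraries in 1 fit neither gene passed (edgeR adjusted p = 1 for both). In silencing 79 were tested and 0 were called, and 8 of the 79 had an unadjusted p under 0.05, where 11.2% of all genes had. The median log2 fold change of the list was -0.09 in overexpression, where 61 of 83 were below 0, and -0.22 in silencing, where 48 of 79 were. Over all genes the median was -8.0e-05 and 0.03, and 50% and 48.8% were below 0. Genes read in the same libraries are not independent of each other, so these counts of directions are descriptions.

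Among presynaptic receptors related to neurexins, 0 of 6 were called in either experiment. All 6 had fold changes below 0 in overexpression, with a median of -0.20, where 50% of all genes were below 0. Ptprd, a receptor phosphatase that binds some of the same partners, had 178 ± 55.9 CPM with Ptbp1 overexpression and 207 ± 41.9 CPM with the control vector. Of the 12 postsynaptic neurexin ligands other than neuroligins 0 were called. Lrrtm1, a leucine-rich repeat ligand of neurexins at excitatory synapses, averaged 39.1 ± 19.3 CPM with Ptbp1 shRNA (SD, n = 4) and 75.9 ± 22.0 CPM with scrambled shRNA (SD, n = 5). Its log2 fold change was -0.96 with a standard error of 0.38 (edgeR adjusted p = 0.357). Clstn2, a calsyntenin, had 54.8 to 74.5 CPM in the Ptbp1 shRNA libraries and 80.9 to 99.1 CPM in the scrambled shRNA libraries, without overlap, as were 2.45% of all genes tested, with a log2 fold change of -0.53 (edgeR adjusted p = 0.444). Clstn3 and Dag1, the dystroglycan gene, had the smallest p of this role in overexpression, with log2 fold changes of -0.32 and -0.22 and an edgeR adjusted p of 0.974 each.

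Of the 10 secreted ligands, 6 were tested in silencing and 9 in overexpression, and 0 were called. Car11, a carbonic anhydrase related protein that binds neurexins, had 24 to 36 CPM with Ptbp1 overexpression and 35.3 to 41.4 CPM with the control vector, a log2 fold change of -0.30 with an unadjusted p of 0.0245 and an adjusted p of 0.974 by edgeR. Its relative Car10 had a log2 fold change of -0.14 in the same libraries. Cbln1, a cerebellin that bridges neurexins that carry the splice site 4 exon to their receptors, and C1ql3 had -0.87 and -0.54 in silencing. Grid1, a cerebellin receptor gene, had -0.13 in overexpression and -0.32 in silencing. The neuroligin inhibitors Mdga1 and Mdga2, which cover the neurexin-binding face of neuroligins, had 0.08 and 0.17 in overexpression. Mdga1 had 0.126 to 5.24 CPM in the Ptbp1 shRNA libraries and 0 to 1.33 CPM in the scrambled shRNA libraries, a log2 fold change of 3.20 with a standard error of 1.56 (edgeR adjusted p = 0.477). All of these had an edgeR adjusted p above the threshold.

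Inside the terminal, 0 of 8 partners were called. All 8 were below 0 in overexpression, with a median of -0.06, where 50% of all genes were below 0. Syt1, the calcium sensor of transmitter release, had a log2 fold change of -0.54 with a standard error of 0.22 in silencing (edgeR adjusted p = 0.386), and Lin7a, a scaffold of the Cask complex, -0.59. Apba2, which encodes an adaptor of the Mint family, had -0.16 in overexpression. Of the 9 postsynaptic scaffold genes 0 were called. Dlg4, which encodes PSD-95, had 225 to 278 CPM with Ptbp1 overexpression and 250.3 to 332 CPM with the control vector, and Magi2 had a log2 fold change of 0.09. Gphn, the gephyrin gene of inhibitory synapses, had 0.96 in silencing (edgeR adjusted p = 0.511).

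Among 18 other synaptic adhesion genes 0 were called and 16 were below 0 in overexpression, where 50% of all genes were. Slitrk4 had 28.2 to 63.0 CPM with Ptbp1 overexpression and 56.3 to 78.7 CPM with the control vector, a log2 fold change of -0.47 with an unadjusted p of 0.0296, and Slitrk3 had -0.29. Cadm3 had 228 to 276 CPM in the Ptbp1 shRNA libraries and 292 to 585 CPM in the scrambled shRNA libraries, without overlap, again as 2.45% of all genes, a log2 fold change of -0.75 (edgeR adjusted p = 0.224). Tenm2, a teneurin, had -0.51 in silencing. Of the splicing regulators, Rbfox3, the gene of the neuronal marker NeuN, had 98.0 to 133 CPM in the Ptbp1 shRNA libraries and 165 to 469 CPM in the scrambled shRNA libraries. Its log2 fold change was -1.0 with a standard error of 0.32 (edgeR adjusted p = 0.254). Nova2, another neuronal splicing regulator, had -0.83 with a standard error of 0.27 (edgeR adjusted p = 0.262). The protease gene Adam10 had -0.30 in silencing, and Adam10 and Mmp9, another protease gene, had -0.09 and 0.41 in overexpression, none called.

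**Figure D5:**
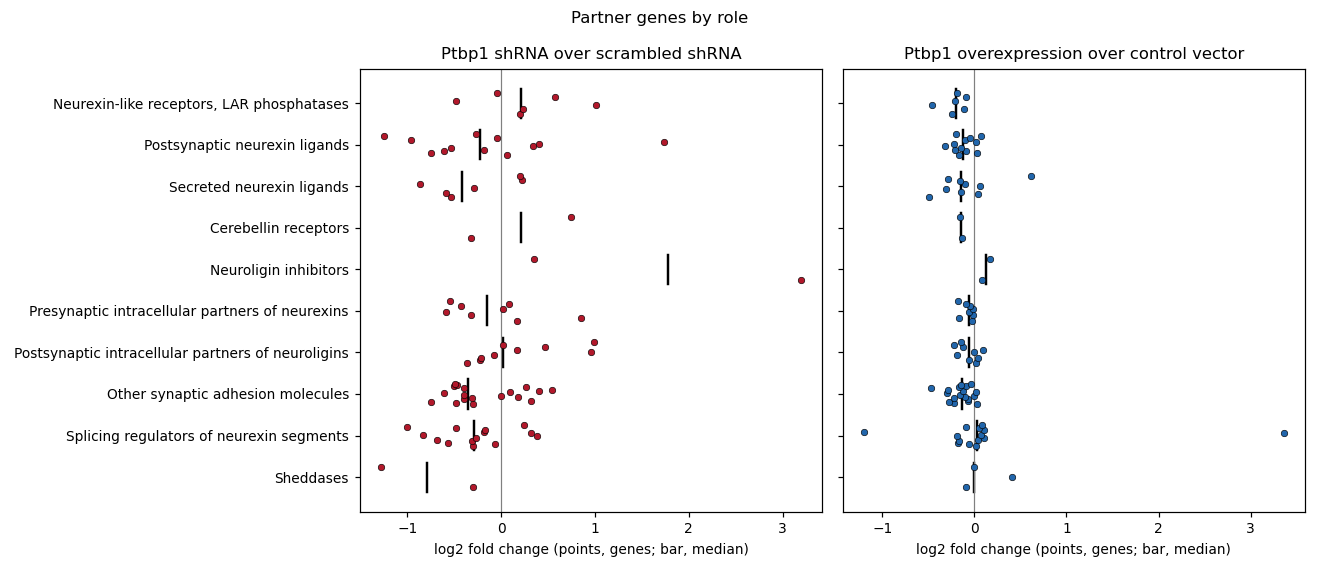
Log2 fold change (x axis) of each tested partner gene (points) by role (rows), with the median of each role (bar), for Ptbp1 shRNA over scrambled shRNA and for Ptbp1 overexpression over control vector. In overexpression most points lie just below 0, with Ptbp1 at 3.36 and Ptbp2 at -1.20 apart from the rest, and the silencing points spread wider.

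The genes whose levels followed each member most closely were sought among 8103 genes, by the mean of the 2 Pearson correlations within the 9 silencing and the 9 overexpression libraries. For Nrxn2 they were Tmem132b (mean r = 0.92), Grin2b (0.91), an NMDA receptor subunit, and Ptprs (0.89), a receptor phosphatase on the partner list. In silencing, scrambled shRNA replicate 5 had an Nrxn2 level of 103 CPM, far above the other libraries. The correlations of Nrxn2 without it were not computed. For Nrxn3 they were Ntng1 (0.96), which encodes the adhesion protein netrin-G1, Ildr2 (0.92) and Gpr158 (0.91). For Nlgn1 they were Plppr4 (0.95), Grm5 (0.95), a metabotropic glutamate receptor, and Tecr (0.94). For Nlgn2 they included Kcnt1 (0.89), a potassium channel gene, and Ptprn2 (0.89). For Nlgn3 they were Itm2b (0.92), Vps13c (0.92) and Sv2b (0.92), a synaptic vesicle protein. The libraries of a group share treatment, scaling and coverage.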

How the data were processed

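Per the labels, RNA was purified by TRAP and 1 library was made per mouse. The values are raw whole-number counts of genes and of exon bins as deposited by the authors. The submitters' processing notes name STAR 2.5.3a, HTSeq and the mm10 build. No annotation release or strand setting is given in the sources used here. Reads of overlapping genes, such as Nlgn3 with Med12 and Gm21986, may thus be mixed. Of 39017 identifiers 37607 matched a symbol. The 5 closing lines of each exon file name no bin and were left out. Bins were placed by flattening GENCODE M21 transcripts with the lower identifier numbers. The number of bins then equals the deposited one for 89.4% of 34765 single-gene identifiers, and for all 5 members. The first 22 bins of Nrxn2 were not placed, because a constant exon was at 0 beside intronic bins with reads.

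The 2 experiments were fitted separately in R 4.3.3 using edgeR 4.0.16 (filterByExpr, TMM, robust quasi-likelihood F test, Benjamini-Hochberg over all genes, threshold 0.05). Bins were tested with diffSpliceDGE, and Ptbp1 by exact permutation on log2(CPM + 0.5). A standard error is the absolute log2 fold change divided by the root of its F, and intervals are 95%. What depth, uneven coverage and the number of mice each do to precision was not tested. Alternatives were DESeq2 1.42.0, limma 3.58.1 voom, RLE scaling, no filter, a coverage covariate, all 18 libraries in 1 fit, bins averaging 10 or more counts and leaving out each library. The tests were tried on simulated counts with known changes. The members and the lists were chosen with earlier results of these data known. Named were all members, called partners, the 2 partners per role with the smallest p in each experiment, all segments and, per member, the bin with the smallest p. A few genes this rule names, and 1 segment's sequence, are not reported here. Replicate numbers follow the order of deposition.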

Additional observations from a re-analysis of the deposited data

Results flagged for a closer look

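In the Ptbp1 shRNA group the Nlgn3 level of replicate 4, 144 CPM, lies far from the other 3 libraries, at 78.5, 75.1 and 68.7 CPM, by Dixon's criterion for a single outlying sample. Levels of the 5 members were examined in this way in 20 groups, of which chance flags about 1 in 20, so a single flag is no more than chance gives. Its markers of superficial and layer II neurons summed to 583 CPM, the highest of the 4 libraries, which otherwise had 284 to 334 CPM. Its excitatory neuron markers summed to 1315 CPM, the lowest of the 4 libraries, which otherwise had 1992 to 2558 CPM. Whether these are related to its Nlgn3 level was not tested.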

How the results depend on the processing

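In silencing the number of members called was 0 by edgeR, 1 (Nrxn3) by DESeq2 and 2 (Nrxn3 and Nlgn2) with all 18 libraries in 1 fit, in which the spread of the steadier overexpression libraries is pooled in. In overexpression, and for the difference between the experiments, it was 0 under every alternative run, and no member bin was called under any. The count over all genes in silencing was 0 by edgeR, 434 by DESeq2, 1775 with all 18 libraries, 69 by voom, 11 without a filter, 8 with the coverage covariate and 0 to 5 leaving out 1 library. In overexpression it was 7, and 40 by DESeq2 and 0 with all 18 libraries. For the difference it was 40, 667 by DESeq2 and 1 to 174 leaving out 1 library. Over all bins in silencing it was 1, 7 with bins averaging at least 10 counts, 3 by limma, 0 without the 2 least evenly covered libraries and 0 to 3 leaving out 1 library. Segments without overlap numbered 1, or 1 to 2 leaving out 1 library, in either experiment. In silencing the segment was the second site A exon of Nlgn3, on 1 and 2 reads. Only 2 Ptbp1 shRNA libraries and 1 scrambled shRNA library had flanking reads there, so this compares no groups.

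Directions changed for the following, and the causes were not tested. In silencing Nrxn2 had 0.16 without the 2 least evenly covered libraries and -0.81 to 0.18 leaving out 1, and its difference between experiments -0.37 to 0.61. Mdga2 had -0.10 without those 2 libraries, -0.050 with the coverage covariate and -0.20 to 0.60 leaving out 1. Leaving out 1 library gave -0.55 to 0.044 for Grid1, -0.56 to 0.079 for Ptbp2 and -0.76 to 0.84 for Ptbp1, which had -0.015 by voom. The Ptbp1 check in silencing ranged from -0.93 to 0.57. In overexpression Mdga1 had -0.25 and Adam10 0.016 with the covariate, and Mdga1 -0.16 to 0.42 leaving out 1. The difference of Nlgn1 was -0.017 with RLE scaling and by DESeq2, and -0.16 to 0.15 leaving out 1. That of Nlgn3 was -0.0034 with both, and -0.11 to 0.32. Relative bin use in silencing turned for Nrxn2 bin 048 (-0.10 without the 2 libraries, -0.60 by limma), Nrxn3 bin 034 (-0.023 and -0.11, and -0.16 to 0.21 leaving out 1) and Nlgn1 bin 005 (0.57 without the 2, and -1.79 to 0.34). It also turned for Nrxn3 bin 037 (-0.46 to 0.24) and Nlgn2 bin 004 (-0.71 to 0.26). In overexpression it turned for Nlgn2 bin 009 (-0.19 by limma, -0.17 to 0.28), Nlgn2 bin 010 (-0.056 to 0.23) and Nrxn3 bin 037 (-0.00046 to 0.35).

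No paired analysis was possible because the replicate numbers follow the order of deposition and pair no mice across groups. Leaving out the 2 least evenly covered libraries, and testing the bins of Nlgn3 apart from its overlapping genes, were chosen after seeing the data. Testing them apart called no bin of Nlgn3.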
